A study of Mus musculus with 2 samples.

Results

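The CXC chemokines that act through the receptor Cxcr2 were followed in 2 single-cell RNA libraries from CT26 tumours, together with the receptor and a related platelet chemokine. The members were named by gene symbol and were 7 of the 32285 genes in the files. They were Cxcl1, Cxcl2, Cxcl3, Cxcl5 and Ppbp, which bind Cxcr2, Pf4, which lies in the same gene cluster, and Cxcr2 itself. CT26 is a mouse colon carcinoma line that grows in BALB/c mice, an inbred strain. One library came from BALB/c tumours labelled mock and 1 from BALB/c tumours labelled PTIR1-expressing, and PTIR1 is, by the series title, an immunoproteasome suppressor. Transcripts were tagged in droplets with unique molecular identifiers (UMIs) and sequenced from their 3' ends. The labels name tumour-infiltrating lymphocytes as the source, and do not say how PTIR1 was introduced, how many tumours or mice each library held, or their age.

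With 1 library per group there was no replicate, and no test between the groups was possible. Levels are UMIs of a gene per 1000000 UMIs of the same cells (CPM), and ratios are CPM in the PTIR1 library over CPM in the mock library. Ranges in parentheses after a value are 95% intervals for counting error alone. A gene was counted as measured in a class of cells with at least 50 UMIs over both libraries, and as higher or lower where the whole interval of its ratio lay beyond 1.5-fold. In 3' UMI counting a captured transcript is counted once whatever its length, so levels were not divided by transcript length.

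Chemokines of this family carry a short glutamate, leucine and arginine motif before their first cysteines and draw neutrophils through Cxcr2, a G protein-coupled receptor of mature neutrophils. Their genes are switched on rapidly by interleukin 1, tumour necrosis factor and Toll-like receptor signals through NF-kB, and their transcripts are short-lived because proteins such as tristetraprolin bind AU-rich elements in the 3' untranslated region. In tumours they are known as products of macrophages, fibroblasts, cancer cells and neutrophils themselves. Ppbp and Pf4 are best known from platelets, and Pf4 lacks the motif and is not a Cxcr2 ligand.

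The 6 chemokine genes lay side by side on the plus strand of chromosome 5 (GRCm38, GENCODE vM21), within 146.579 kb from 90759360 to 90905938, in the order Cxcl5, Ppbp, Pf4, Cxcl3, Cxcl1 and Cxcl2. Cxcr2 lay on chromosome 1 from 74153989 to 74161246. All 7 are annotated as protein-coding. The promoters of Cxcl1, Cxcl2 and Cxcl3 are printed because these genes gave most of the ligand UMIs in every class described and differed in the same direction in macrophage-like cells. Each sequence is the 110 bases before the RefSeq transcription start (GRCm38.p6), 5′ to 3′ on the plus strand, at chr5:90891135-90891244 for Cxcl1, chr5:90903789-90903898 for Cxcl2 and chr5:90785991-90786100 for Cxcl3. The GENCODE gene starts differ from these, at 90891241 for Cxcl1, 90903871 for Cxcl2 and 90786103 for Cxcl3. The last printed bases of Cxcl1 and Cxcl2 therefore lie inside the gene as GENCODE annotates it. Capitals mark the 2 stretches of at least 8 bases that all 3 genes share in the 250 bases before their starts, GGGAATTTCCC, which is of the kind that NF-kB dimers bind, and ATAAAAGG, which resembles a TATA box.
Cxcl1: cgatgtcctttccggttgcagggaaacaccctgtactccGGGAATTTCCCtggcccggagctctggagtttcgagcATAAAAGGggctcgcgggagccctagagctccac
Cxcl2: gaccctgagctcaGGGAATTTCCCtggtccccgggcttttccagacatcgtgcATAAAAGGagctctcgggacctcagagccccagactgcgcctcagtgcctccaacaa
Cxcl3: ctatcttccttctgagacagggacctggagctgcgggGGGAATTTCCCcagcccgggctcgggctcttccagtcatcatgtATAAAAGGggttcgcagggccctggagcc

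These stretches stood 37, 40 and 44 bases apart, first base to first base, in Cxcl1, Cxcl2 and Cxcl3. Searched on both strands of windows of 300 bases (250 before to 50 after a start), GGGAATTTCCC occurred in 14 of 32851 windows (0.0426%), ATAAAAGG in 577 (1.76%), and both in 3, which were those they were read from. The windows of Pf4 and Cxcr2 held neither sequence, and that of Ppbp held ATAAAAGG only. A match describes these letters and is not evidence of binding. In the 3' untranslated regions, the pentamer ATTTA occurred 11.8 times per kb in Cxcl1 (7 copies), 7.36 in Cxcl2 (11 copies), 7.75 in Cxcl3 (5 copies), 4.5 in Cxcl5 (5 copies), 8.13 in Pf4 (1 copy), 1.52 in Ppbp (1 copy) and 1.1 in Cxcr2 (2 copies), against a median of 1.28 over 20676 genes. Values as high as that of Cxcl1 were found in 0.682% of genes, and as high as that of Cxcl2 in 2.78%. Cxcl2 shared 5.84% of its 50-base windows with Cxcl3, so reads from those stretches could not be told apart.

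The mock library held 10833 cells and 95166611 UMIs and the PTIR1 library 9006 cells and 98540561 UMIs, and 30 cell barcodes occurred in both. Filtering left 8632 cells of the mock library, with a median of 3042.5 UMIs, and 7109 of the PTIR1 library, with a median of 6546. Cells were clustered without the members and the other chemokine genes, and clusters were named from marker genes. The named classes used here were macrophage-like cells (1644 mock, 1347 PTIR1; monocytes included), neutrophil-like cells (192 and 299), fibroblast-like cells (49 and 773), CT26 tumour cell-like cells (198 and 130) and, as cells not known for these chemokines, B cell-like cells (410 and 843). The remaining cells were in other classes, in clusters of mixed lineage (171 and 282) or in unnamed clusters, mostly of low depth (4774 and 2295). The tumour and fibroblast names were the least secure, since 4 of 7 and 5 of 7 tumour markers were found in tumour-like cells of the mock and PTIR1 libraries (the keratin gene Krt7 and Cldn4 were at 0 in both) and fibroblast-like cells held the tumour markers at 66.4% and 79.4% of the tumour-like level.

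Over all kept cells, the 5 Cxcr2 ligands together made up 3678 CPM in mock and 6477 CPM in PTIR1 cells, a ratio of 1.76 (1.75 to 1.77). Every ligand was higher in the PTIR1 library. Cxcl5 had the largest ratio, 4.15 (3.76 to 4.59), at low levels of 6.02 and 25 CPM, followed by Cxcl1 at 2.47, Ppbp at 2.19, Cxcl3 at 1.89 and Cxcl2 at 1.69. Pf4 was alike at 1273 and 1275 CPM, and Cxcr2 stood at 7.5 and 9.65 CPM, a ratio of 1.29 (1.16 to 1.43). These totals combine the level per cell with how many cells of each class were captured.

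Macrophage-like cells held most of the ligand UMIs, 65.2% of 302396 among mock and 62.3% of 546284 among PTIR1 cells. With cells assigned by a gate on markers in each cell instead of by cluster, the macrophage-like share was 57.6% and 32.6%, so it was no longer most in the PTIR1 library. Neutrophil-like cells held 9.38% and 11.3%, fibroblast-like cells 0.123% and 1.94%, and tumour-like cells 0.899% and 0.36%. Single ligands departed from this order. Fibroblast-like cells held 1.64% of the Cxcl1 UMIs in the mock library and 21.5% in the PTIR1 library, and 1.62% and 25.8% of the Cxcl5 UMIs, while their cells were 0.568% and 10.9% of all kept cells. For tumour-like cells the shares of Cxcl1 were 7.3% and 3.69%. The receptor lay elsewhere, with 72.0% of 617 mock and 61.7% of 814 PTIR1 Cxcr2 UMIs in neutrophil-like cells.

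**Figure D1:**
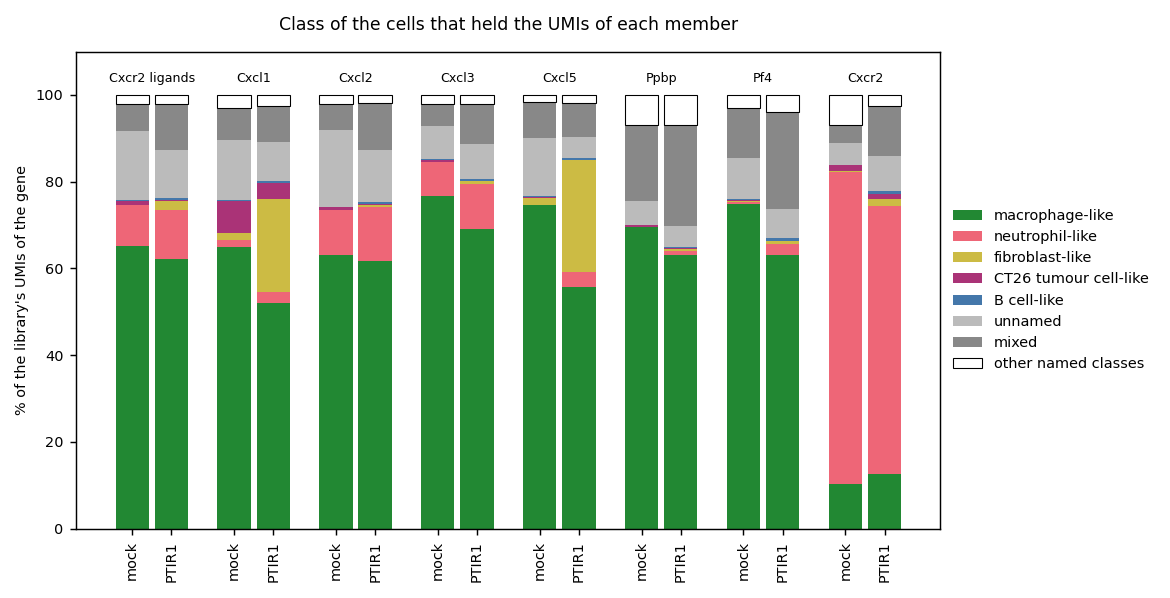
Share of the UMIs of each member, in percent of the library's UMIs of that gene, found in each class of cells, in the mock and PTIR1 libraries (stacked bars, no error shown). Macrophage-like cells, as clustered, hold most UMIs of each chemokine, neutrophil-like cells hold most Cxcr2 UMIs, and the fibroblast-like share of Cxcl1 and Cxcl5 is larger in the PTIR1 library.

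In macrophage-like cells all 5 Cxcr2 ligands stood higher in the PTIR1 library, and Pf4 did not. The ligands summed to 8239 CPM in mock and 16330 CPM in PTIR1 cells, a ratio of 1.98 (1.97 to 1.99). Of the 7 members, all measured, 5 were higher beyond 1.5-fold and 0 lower, against 1.76% higher and 1.13% lower among the 11045 genes measured in the class. The median log2 ratio of the members was 1.01, against -0.04 over all measured genes.

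Cxcl2, the most abundant member in these cells and a product of activated macrophages known as MIP-2, was at 6439 CPM in mock and 12535 CPM in PTIR1 cells, a ratio of 1.95 (1.93 to 1.96). Its level differed widely between cells of 1 library: the 10th percentile, median and 90th percentile of CPM per cell were 150.5, 4231 and 19185 for mock cells and 997, 11096 and 29537 for PTIR1 cells, so the libraries overlapped broadly. Cxcl3, its close paralogue, was at 1320 and 2656 CPM, a ratio of 2.01 (1.98 to 2.04). Cxcl1, also known as keratinocyte chemoattractant, was at 365 and 851 CPM, a ratio of 2.33 (2.27 to 2.39). Both were expressed by fewer cells than Cxcl2.

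Each cell was also thinned to 1000 UMIs, which left out shallower cells. These were 8 macrophage-like cells in each library, and 11 mock and 93 PTIR1 B cell-like cells. After thinning, Cxcl2 was detected in 78.8% of mock and 91.0% of PTIR1 macrophage-like cells, against 17.3% and 37.6% of B cell-like cells. Cxcl3 was detected in 29.8% and 45.2% (B cell-like 5.26% and 8.27%), and Cxcl1 in 18.9% and 33.5% (B cell-like 1.25% and 5.07%). Without thinning, the macrophage-like shares were 95.1% and 98.9% for Cxcl2, 52.4% and 74.3% for Cxcl3, and 45.3% and 65.6% for Cxcl1. Thinned cells with at least 2 different ligands made up 37.1% (34.8 to 39.5) in mock and 58.3% (55.6 to 60.9) in PTIR1 cells. In B cell-like cells the summed ligand level was 257 and 589 CPM, a ratio of 2.29, with macrophage markers at 9.65% and 12.9% of the macrophage-like level. The B cell-like ligand level was under 5% of the macrophage-like level in both libraries. Other lymphoid classes differed more. T cell-like cells had 311 and 2166 CPM, a ratio of 6.96, and NK cell-like cells 226 and 859 CPM, a ratio of 3.79. Both ratios were larger than in macrophage-like cells. The ratio was 2.12 in mature dendritic cell-like, 1.07 in plasmacytoid dendritic cell-like and 0.511 in mast cell- or basophil-like cells. Within macrophage-like cells the 11 macrophage markers summed to 8745 and 7438 CPM and the 8 monocyte markers to 5320 and 5651 CPM. The 11 neutrophil markers were at 921 and 1466 CPM, 1.85% and 3.55% of the neutrophil-like level, the 10 fibroblast markers at 6.81 and 33.6 CPM, and the 7 tumour markers at 15.3 and 56.3 CPM, with Krt19 and Cldn4 at 0 in both libraries. The part of RNA from other cells in the macrophage-like result was not tested.

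The other two ligands were rare. Cxcl5, which mesenchymal and epithelial cells are best known to make, was at 15.4 CPM in the mock (369 UMIs in 59 cells) and 56.4 CPM in the PTIR1 library (1174 UMIs in 93 cells), a ratio of 3.66 (3.25 to 4.12). The 10 highest cells held 68.0% and 54.3% of these UMIs, so counting intervals understate the uncertainty of this ratio. Its log2 ratio of 1.87 was 1.15 by the marker gate, 1.24 with each cell and 0.98 with each cluster weighing the same, 1.23 in thinned cells, and -0.56, 1.69, 3.07 and 0.16 in the 4 bins of immediate early RNA described further on.

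Ppbp, the precursor of the platelet chemokine CXCL7, was at 98.9 and 232 CPM in macrophage-like cells, a ratio of 2.34 (2.23 to 2.46). Its UMIs were concentrated: 52 mock cells with at least 10 Ppbp UMIs held 2182 of 2366, and 67 PTIR1 cells held 4486 of 4825. Platelet genes were nearly absent from these cells: 0 of the 52 and 1 of the 67 had a UMI of any of 10 platelet markers, and their macrophage markers stood at 10649 and 10570 CPM. Pf4 in them was at 16849 CPM in mock and 15223 CPM in PTIR1 cells, against 2290 and 1984 CPM in macrophage-like cells without a Ppbp UMI. Cxcl5 was also higher in them, at 238 and 561 CPM against 5.37 and 21.1 CPM. So were the other ligands. Cxcl1 was at 1020 and 1193 CPM against 326 and 787 CPM, and Cxcl2 at 13322 and 16721 CPM against 6106 and 12082 CPM. Cxcl3 was at 5205 and 6861 CPM against 1133 and 2154 CPM. Over all kept cells, 67 mock and 98 PTIR1 cells had at least 10 Ppbp UMIs and held 90.4% and 88.6% of the Ppbp UMIs, most of them in the macrophage-like class and in the clusters of mixed lineage.

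Pf4, known as platelet factor 4 and also made by tissue macrophages, was at 3271 CPM (3249 to 3294) in mock and 3259 CPM (3235 to 3284) in PTIR1 cells, a ratio of 0.996 (0.986 to 1.01). Its clusters were less alike. In the cluster led by Pf4, Fabp5 and Folr2 it was at 8830 and 8770 CPM, a ratio of 0.993. It was higher in the PTIR1 library in the cluster led by C1qa, C1qc and C1qb, at 1383 and 2108 CPM, and in the one led by Thbs1, Vcan and Cxcl3, at 1469 and 2211 CPM. The share of macrophage-like cells in the Pf4 and Fabp5 cluster was 21.7% in mock and 15.7% in PTIR1 cells, and that in the Thbs1 and Vcan cluster 39.96% and 56.3%.

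**Figure D2:**
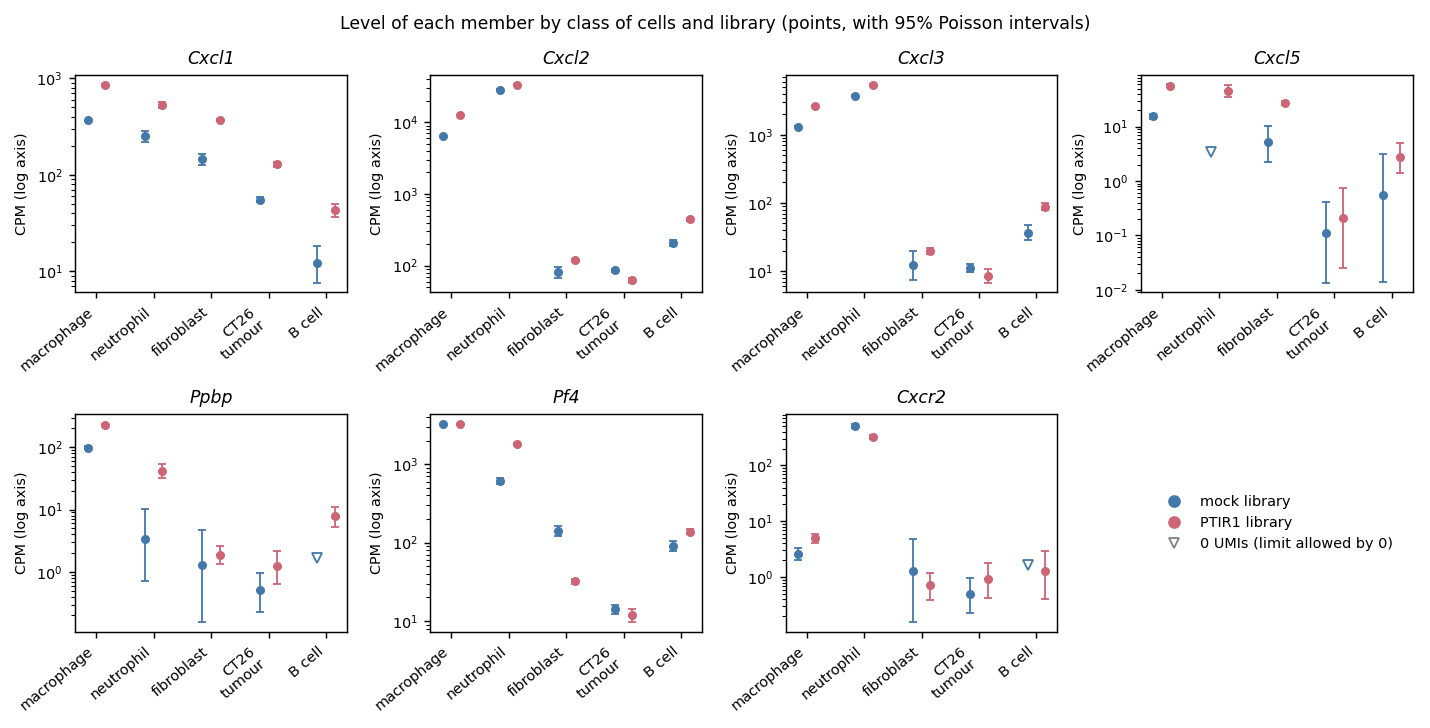
CPM of each of the 7 members (log axis) in macrophage-like, neutrophil-like, fibroblast-like, CT26 tumour cell-like and B cell-like cells of the mock and PTIR1 libraries. Points are levels of 1 library with 95% Poisson intervals, and open triangles mark 0 UMIs at the level that a count of 0 allows; in macrophage-like cells the PTIR1 point lies above the mock point for each ligand and not for Pf4.

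The higher ligand level was found in each of the 5 macrophage-like clusters, with ratios of the summed ligands from 1.5 to 3.18. It was lowest in the cluster led by Hspa1b, Hspa1a and Pgf, where levels were the highest, at 15251 and 22875 CPM. The largest ratio was that of the C1qa cluster, where they were the lowest, at 954 and 3038 CPM. The Thbs1 and Vcan cluster, named from monocyte markers, had 10764 and 20180 CPM, a ratio of 1.87 (1.86 to 1.89), and held 52.1% of the macrophage-like ligand UMIs among mock and 71.5% among PTIR1 cells. The cluster led by the interferon-induced genes Rsad2, Ifit1bl1 and Cmpk2 had 6381 and 11467 CPM, a ratio of 1.80. Because different shares of the class lay in this group of clusters, the ratio with each cluster weighing the same is also given, at 0.76 on the log2 scale against 0.99 for the class as a whole.

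Single ligands were less even across the clusters. Cxcl1 was higher in the PTIR1 library in each of the 5, with ratios from 1.66 in the Rsad2 cluster to 2.58 in the C1qa cluster. Cxcl3 had a ratio of 1.08 (1.04 to 1.11) in the Pf4 and Fabp5 cluster and 2.52 (2.47 to 2.57) in the Thbs1 cluster. Cxcl5 went both ways: it was at 23.2 and 173 CPM in the Pf4 and Fabp5 cluster, a ratio of 7.43 (6.12 to 9.08), and at 89.0 and 26.2 CPM in the Hspa1b cluster, where it was 3.40-fold lower in the PTIR1 library.

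A pair of further clusters of high depth carried monocyte markers but stayed unnamed, because markers of another lineage were among their leading genes. Ligands were at 2047 and 4104 CPM in the one led by Mgl2 and the class II genes H2-DMb1 and H2-Eb1, a ratio of 2.005, and at 2431 and 6572 CPM in the one led by Ace, Adgre4 and Hp, a ratio of 2.70. Pf4 differed in opposite directions there, 1.79-fold lower (1.67 to 1.93) with PTIR1 in the first and 2.75-fold higher (2.57 to 2.95) in the second. An unnamed cluster of low depth, led by Slfn4, Slc7a11 and Abca1, also carried monocyte and macrophage markers (152 mock and 247 PTIR1 cells). Its ligands were at 14608 and 17951 CPM, a smaller ratio of 1.23 (1.19 to 1.27).

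**Figure D3:**
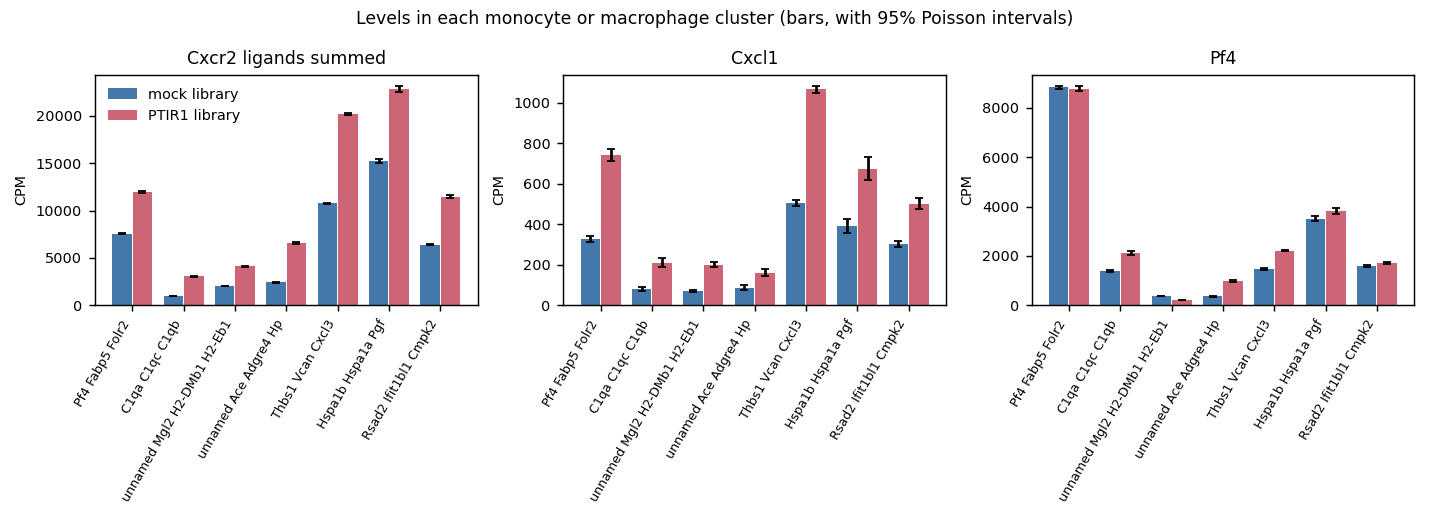
CPM of the summed Cxcr2 ligands, of Cxcl1 and of Pf4 in 7 monocyte or macrophage clusters, each named by its 3 leading genes, in the mock and PTIR1 libraries (bars, with 95% Poisson intervals). Ligands and Cxcl1 are higher in the PTIR1 library in every cluster shown, whereas Pf4 is not.

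Immediate early RNA, which tissue dissociation as well as signalling can raise, moved with the ligands. The 16 immediate early genes (such as Fos, Jun and Egr1) summed to 8443 CPM in mock and 12586 CPM in PTIR1 macrophage-like cells. When these cells were divided into 4 bins of equal size by their share of immediate early RNA, the lowest bin held 578 mock and 170 PTIR1 cells and the highest 245 and 503. Within bins the ratio of the summed ligands was 1.12, 1.63, 1.37 and 1.24 from the lowest to the highest, each below the 1.98 of the whole class and each above 1 beyond counting error. In the lowest bin Cxcl1 had a ratio of 0.908 (0.802 to 1.03) and Cxcl3 of 0.987 (0.942 to 1.03), and in the second they had ratios of 1.92 and 1.86. The part of immediate early RNA in the difference was not tested further.

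**Figure D4:**
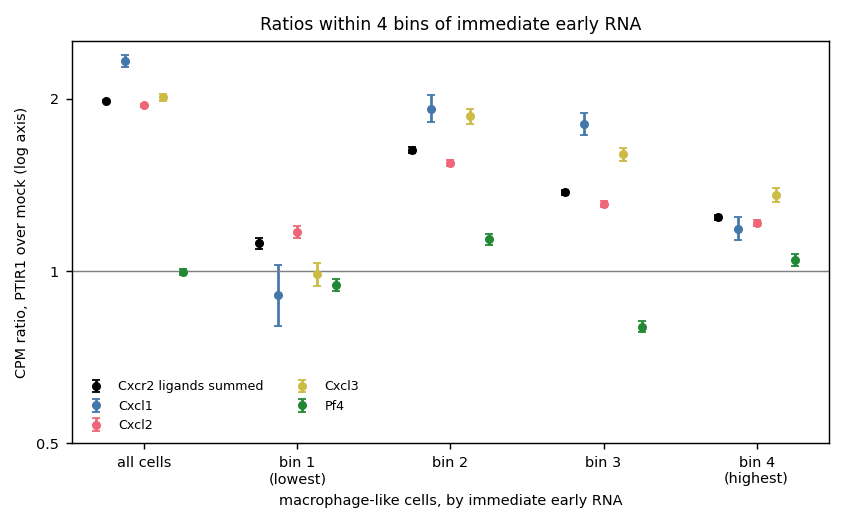
Ratio of CPM in the PTIR1 over the mock library (log axis) for the summed ligands, Cxcl1, Cxcl2, Cxcl3 and Pf4 in all macrophage-like cells and in 4 bins of these cells by immediate early RNA, with 95% intervals for counting error. The ratio of the summed ligands is 1.98 in all cells and between 1.12 and 1.63 within bins.

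Neutrophil-like cells had the highest level of Cxcl2 and Cxcl3 of the classes described, with a smaller ratio between the libraries than in macrophage-like cells (this difference was not tested). The ligands summed to 32461 CPM in mock and 39482 CPM in PTIR1 cells, a ratio of 1.22 (1.20 to 1.23). Cxcl2 alone was at 28476 CPM (28123 to 28832) and 33496 CPM (33209 to 33784), or more than 2% of all transcripts captured in these cells, with a ratio of 1.18. Cxcl3 was at 3731 and 5372 CPM, a ratio of 1.44 (1.38 to 1.5). Within the macrophage-like class, the Hspa1b cluster had more Cxcl3 than this, at 4474 and 5750 CPM. In thinned cells Cxcl2 was detected in 93.9% of mock and 98.8% of PTIR1 neutrophil-like cells. Thinning left out 29 mock and 56 PTIR1 cells of this class as too shallow.

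The remaining chemokines had larger ratios in neutrophil-like cells but rested on few cells. Cxcl1 was at 251 and 526 CPM, a ratio of 2.10 (1.80 to 2.45), and 10 cells held 77.2% and 53.6% of its UMIs. Pf4 was at 606 and 1812 CPM, a ratio of 2.99, and 10 cells held 79.6% and 66.9%. Cxcl5 had 0 UMIs in the mock library, which allows up to 3.43 CPM, and 71 UMIs in 8 cells of the PTIR1 library (45.5 CPM). The lower end of the interval of its ratio was 10.5. Ppbp had 3 and 66 UMIs, a ratio of 12.3 (4.03 to 61.2). These 4 of the 7 members were higher beyond 1.5-fold and 0 lower, against 1.01% higher and 2.3% lower among 4739 measured genes. Cxcl5 and Ppbp reached 50 UMIs only through the PTIR1 library and could enter this count only as higher, so nothing is read from it. By the marker gate the log2 ratio of Cxcl1 was 0.30 against 1.07, that of Pf4 0.66 against 1.58 and that of Ppbp -0.39 against 3.62. In thinned cells that of Cxcl1 was 0.52 and that of Ppbp 0.42.

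Macrophage markers moved with these 4 genes. All 11 markers were found in neutrophil-like cells of both libraries and summed to 3883 CPM in mock and 4991 CPM in PTIR1 cells, 44.4% and 67.1% of the macrophage-like level. Neutrophil-like cells were then divided at the median share of macrophage markers. In the lower bin (109 mock and 137 PTIR1 cells, with 580 and 508 CPM of these markers), Cxcl2 was at 42924 and 51035 CPM, a ratio of 1.19, and Cxcl3 had a ratio of 1.71 (1.61 to 1.81). In this bin Cxcl1 had a ratio of 1.26 (0.922 to 1.72) and Pf4 1.64 (1.16 to 2.35), Ppbp had 2 UMIs in each library, and Cxcl5 had 0 and 3. The upper bin (83 mock and 162 PTIR1 cells) held nearly all UMIs of Cxcl5 and Ppbp in the PTIR1 library, 68 of 71 and 64 of 66. Cxcl2 in it was at 19806 and 27137 CPM, a ratio of 1.37 (1.34 to 1.40), and Cxcl3 had a ratio of 1.45 (1.37 to 1.54). The summed ligands had a ratio of 1.25 in the lower and 1.40 in the upper bin, both above the 1.22 of the whole class.

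The receptor Cxcr2 was concentrated in neutrophil-like cells and was lower there in the PTIR1 library. It was at 508 CPM (462 to 558; 444 UMIs) in mock and 322 CPM (294 to 351; 502 UMIs) in PTIR1 cells, 1.58-fold lower (1.39 to 1.80), an interval that reached within 1.5-fold. In thinned cells it was detected in 45.4% of mock and 30.5% of PTIR1 neutrophil-like cells, with intervals of 37.6 to 53.4 and 24.7 to 36.7, against 0 of 399 (which allows up to 0.752%) and 0.133% of B cell-like cells. Without thinning the shares were 61.5% and 50.5%, at median depths of 2932.5 and 2924 UMIs.

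Cxcr2 was also read against the other RNA of these cells. In the bin with fewer macrophage markers it was at 968 and 635 CPM, a ratio of 0.657 (0.556 to 0.776), and in the upper bin at 233 and 208 CPM, a ratio of 0.893 (0.717 to 1.12). The 11 neutrophil markers summed to 49791 CPM in mock and 41246 CPM in PTIR1 cells, a ratio of 0.828, so their sum was lower as well, by less than Cxcr2. Single markers can differ from the sum: Csf3r was 1.97-fold lower (1.77 to 2.21), by more than Cxcr2. The remaining markers are not given singly. The part of other cells' RNA in the Cxcr2 difference was not tested further.

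A cluster with granule genes of immature neutrophils (Camp, Ngp and Ltf) was kept apart, with 1 mock and 59 PTIR1 cells. In the PTIR1 library it had 1 Cxcr2 UMI, or 3.94 CPM (0.0998 to 22.0), against 322 CPM in the mature class, and its Cxcl2 level of 2232 CPM was also below the 33496 CPM there. Joining it to the mature class gave a log2 ratio of -0.85 for Cxcr2, against -0.66 without it. In macrophage-like cells Cxcr2 was at 2.63 and 4.95 CPM, under 5% of the neutrophil-like level, with neutrophil markers at 921 and 1466 CPM in the same cells. Fibroblast-like and tumour-like cells had at most 14 Cxcr2 UMIs in a library.

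Among other receptors for neutrophil attractants in neutrophil-like cells, 8 of 10 listed genes were measured, and 1 was lower and 0 higher beyond 1.5-fold. Of all genes measured in the class, 2.3% were lower and 1.01% higher. The lower receptor was Csf3r, the receptor for granulocyte colony-stimulating factor and one of the class's own markers, at 773 and 391 CPM, 1.97-fold lower (1.77 to 2.21). Cxcr4, which retains neutrophils in the bone marrow, was at 152 and 79.4 CPM, 1.92-fold lower (1.49 to 2.47). The leukotriene receptor gene Ltb4r1 was at 197 and 277 CPM, a ratio of 1.41. None of the 19 measured of 24 genes for signalling below Cxcr2 lay beyond 1.5-fold, beside the same shares of all genes. Grk2, a kinase that desensitises such receptors, was at 171 and 111 CPM, and the G protein subunit gene Gng2 at 128 and 80.7 CPM.

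Fibroblast-like cells differed from the blood-derived classes in which ligand they held. Cxcl1 made up 59.2% of their ligand UMIs for mock and 68.8% for PTIR1 cells, against 4.44% and 5.21% in macrophage-like cells and 0.772% and 1.33% in neutrophil-like cells, where Cxcl2 made up 76.8% to 87.7%. Cxcl5 made up 2.14% and 5.13% in fibroblast-like cells and at most 0.345% in macrophage-like cells. B cell-like cells, with 80.7% and 75.9% Cxcl2, had nearly the make-up of macrophage-like cells.

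**Figure D5:**
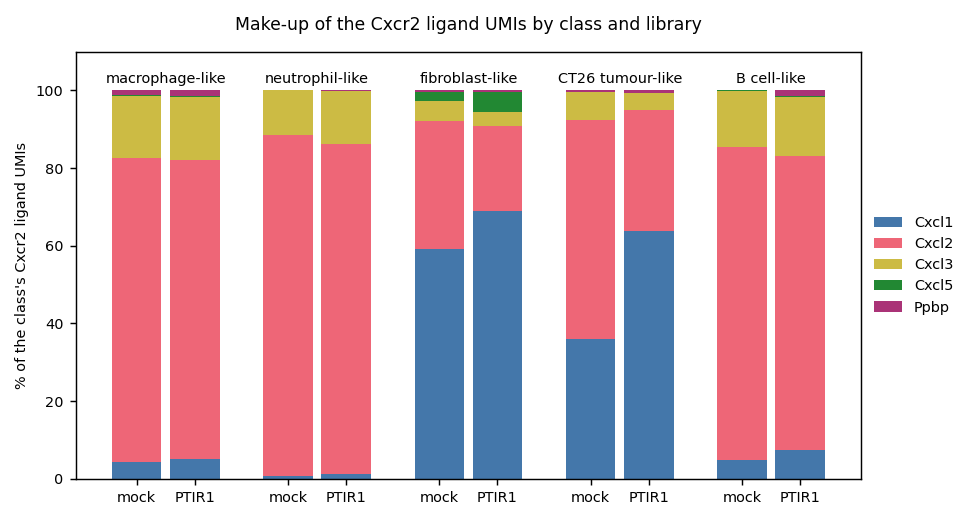
Make-up of the Cxcr2 ligand UMIs, in percent of all ligand UMIs of the class, in 5 classes of the mock and PTIR1 libraries (stacked bars, no error shown). Cxcl2 leads in macrophage-like, neutrophil-like and B cell-like cells, and Cxcl1 leads in fibroblast-like cells and in PTIR1 tumour-like cells.

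The level of Cxcl1 in fibroblast-like cells was 144 CPM (126 to 165; 24 of 49 cells) in mock and 372 CPM (364 to 381; 531 of 773 cells) in PTIR1 cells, a ratio of 2.58 (2.25 to 2.96). In thinned cells it was detected in 12.2% (4.63 to 24.8) and 21.0% (18.1 to 24.0), intervals that overlap. Cxcl5 was at 5.23 and 27.7 CPM (8 and 544 UMIs), a ratio of 5.30 (2.67 to 12.4). These were the 2 of 5 measured members higher beyond 1.5-fold, against 0.939% of 10433 genes, and Cxcl5 reached 50 UMIs only through the PTIR1 library, which held most of these cells. Cxcl2 was at 80.4 and 119 CPM and Cxcl3 at 12.4 and 19.8 CPM, both below the B cell-like level of the same library. With doublets kept, their log2 ratios were 2.35 and 2.93 against 0.57 and 0.67, and that of Pf4 was -0.45 against -2.14.

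Pf4 was the 1 member lower in fibroblast-like cells, at 141 and 32.1 CPM, against 2.37% of genes lower. In the mock library 187 of its 216 UMIs were in 1 cell, and macrophage markers were at 322 CPM in mock and 94.8 CPM in PTIR1 fibroblast-like cells. The mock values of this class rest on 49 cells, and 10 of them held 79.6% of the Cxcl1 UMIs. In the bin with fewer macrophage markers, divided as above (25 mock and 386 PTIR1 cells) Cxcl1 was at 57.5 and 365 CPM, a ratio of 6.35, and in the upper bin at 254 and 381 CPM, a ratio of 1.5, so the size of the difference was not fixed by these data. Pf4 in the lower bin was at 15.3 and 21.1 CPM.

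In CT26 tumour cell-like cells Cxcl1 was higher in the PTIR1 library, and neither Cxcl2 nor Cxcl3 lay beyond 1.5-fold. It was at 55.2 CPM (51.8 to 58.8) in mock and 129 CPM (122 to 136) in PTIR1 cells, a ratio of 2.34 (2.15 to 2.54), and was the 1 of 4 measured members called higher, against 0.693% of 10385 genes, with 0 lower against 1.31%. Its UMIs came from few cells, 10 of which held 54.9% and 65.8%, so counting intervals understate the uncertainty of its ratio. In thinned cells it was detected in 5.56% (2.81 to 9.72) of mock and 7.69% (3.75 to 13.7) of PTIR1 cells, intervals that overlap. The medians per cell were 10.0 and 27.8 CPM. The ratio was 2.55 (2.29 to 2.84) in the bin with fewer macrophage markers and 2.03 (1.77 to 2.33) in the upper bin. A higher Cxcl1 level was not particular to tumour-like cells. It was at 12.2 and 43.1 CPM in B cell-like cells, a ratio of 3.52 (2.25 to 5.76). NK cell-like cells had 8.02 and 50.4 CPM (ratio 6.29) and T cell-like cells 9.88 and 145 CPM (ratio 14.6). The ratio was 0.479 in mast cell- or basophil-like and 0.370 in plasmacytoid dendritic cell-like cells.

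Cxcl2 in tumour-like cells was at 85.9 and 63.1 CPM and Cxcl3 at 11.2 and 8.53 CPM, both under the B cell-like level of the same library. A single mock cell held 396 of 1528 Cxcl2 UMIs, and 10 held 78.5%. In the bin with fewer macrophage markers Cxcl2 was higher in the PTIR1 library instead, at 22.3 and 39.6 CPM, as were the medians per cell of all tumour-like cells, at 19.5 and 45.9 CPM. Cxcl1 made up 36.1% of the ligand UMIs of mock and 63.8% of PTIR1 tumour-like cells. Cxcl5 had 2 UMIs in each library and Ppbp 9 and 12. An unnamed cluster led by Lgals7, Atf5 and AY036118 (302 mock and 183 PTIR1 cells) carried the tumour markers Tm4sf1 and Areg. It had too few markers to be named and is not part of the tumour-like values. Its median depth was 1538.5 and 2235 UMIs, and its macrophage markers stood at 1345 CPM. In it Cxcl2 was at 1158 and 2034 CPM, a ratio of 1.76, and Cxcl1 had a ratio of 2.95.

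Inducers of these genes were looked at in the same cells. In macrophage-like cells 4 of 12 measured inducers and receptors (15 listed) were higher beyond 1.5-fold and 0 lower, beside the 1.76% and 1.13% of all genes measured there. The list was not raised as a whole: 7 of the 12 had intervals wholly above 1 and 4 wholly below 1. In the NF-kB list these counts were 7 and 1 of 13. The shares of all genes at this looser limit were not taken in this class, so nothing is read from these counts. Il1a was at 10.6 and 44.9 CPM, a ratio of 4.25 (3.70 to 4.90), and Il1b at 1050 and 1949 CPM, a ratio of 1.86. Osm, which encodes oncostatin M, was at 288 and 758 CPM, and Il6 at 18.3 and 48.3 CPM, both with a ratio of 2.63. The NF-kB list had 1 of 13 higher and 0 lower, beside the same shares. It was Nfkbia, the inhibitor that NF-kB itself induces, at 847 and 1537 CPM (ratio 1.81). None of 9 decay and stability factors lay beyond 1.5-fold. Zfp36, which encodes tristetraprolin, was at 816 and 1200 CPM, a ratio of 1.47 (1.44 to 1.5). The median log2 ratio was 0.27 for the inducers, 0.21 for the NF-kB list and -0.02 for the decay factors.

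The same lists differed in sign in neutrophil-like cells, with median log2 ratios of -0.31 for the NF-kB list and -0.22 for the inducers. No gene of the NF-kB list was beyond 1.5-fold, beside 1.01% higher and 2.3% lower of all genes measured in the class. Of the 12 measured, 5 had intervals wholly below 1, beside 13.5% of all genes measured. Among these 5 were Nfkbia at 3758 and 2987 CPM and Nfkbiz at 1010 and 694 CPM. Tnf was at 193 and 83.3 CPM, 2.32-fold lower (1.84 to 2.94), while Il6 had 5 and 49 UMIs. Among decay factors Zfp36l1 was higher, at 291 and 580 CPM. In fibroblast-like cells Nfkbiz (127 and 222 CPM, ratio 1.74) and Zfp36 (377 and 641 CPM, ratio 1.70) were higher, the 1 called gene of its list in each case. Of all genes measured in fibroblast-like cells, 0.939% were higher and 2.37% lower. Of 10 measured inducers 0 were higher there and 2 lower. Il1b was at 92.2 and 30.6 CPM, 3.01-fold lower (2.49 to 3.62). Il1rn, its receptor antagonist, was at 8.5 and 2.24 CPM, 3.79-fold lower (1.87 to 7.16). Both stood beside the lower macrophage markers given above. Nfkbiz and Zfp36 were also higher in tumour-like cells, at 24.3 and 42.0 CPM and at 52.5 and 114 CPM. None of 10 measured inducers lay beyond 1.5-fold in tumour-like cells, beside 0.693% higher and 1.31% lower of all genes measured there.

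Not all CXC chemokines stood higher in the PTIR1 library. Cxcl9, a ligand of Cxcr3 that interferon gamma induces, was at 225 and 69.1 CPM in macrophage-like cells, 3.25-fold lower (3.06 to 3.44), and Cxcl10 at 559 and 415 CPM. In tumour-like cells Cxcl10 was at 51.0 and 16.5 CPM, 3.08-fold lower. Cxcl14, which acts on other cells than neutrophils, was higher in macrophage-like cells, at 53.1 and 120 CPM (ratio 2.25).

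Across the 21 sums of a named class and library with at least 20 cells, the pattern of each member was set against 9340 genes by Pearson's r of log2(CPM + 10), as a description over sums that share libraries. Cxcl2 was most like Cxcl3 (r = 0.979), then Clec4d and Ccr1. Pf4 was most like Ccl9 (r = 0.937), Mrc1 and Msr1. Cxcl1 had weaker neighbours, led by Creb5 and Mmp19 (both r = 0.857), and its r with Cxcl2 was 0.572. Cxcl5 (Appbp2, r = 0.747) and Ppbp (Havcr2, r = 0.796) had no close neighbour. Cxcr2 was most like Acta2, Steap4 and Olfm4, with r from 0.976 to 0.979. It was at 508 and 322 CPM in neutrophil-like cells and at most 13.7 CPM in any other named class. These r values therefore rest mainly on the neutrophil-like sums.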

How the data were processed

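Each library was deposited as a matrix of UMI counts (genes by barcodes). The submitters' processing notes name Cell Ranger 5.0.0, Seurat 3.2.3 and mm10, and an annotation version is not given in the sources used here. Barcodes under 200 detected genes or above 10% mitochondrial UMIs were dropped (1505 mock, 1439 PTIR1). Scrublet scored barcodes with at least 200 genes and up to 20% mitochondrial UMIs. The top scores among those left by the filter, 0.8% per 1000 cells, were removed as doublets (696 and 458). Clustering used both libraries, 2000 variable genes other than chemokines, 30 components, 15 neighbours and Leiden resolution 1.0. Naming required 3 or more markers, each detected in 10% of the cluster, 2-fold over the median cluster and 20% of the top cluster. Clusters with a rival lineage (50% of the leading lineage's marker share) and lymphoid clusters with 25% of the macrophage marker level were called mixed; the latter limit was chosen after seeing the data. Clusters of low depth with no marker of their own lineage among their 10 leading genes stayed unnamed. So did clusters with another lineage's markers there, at least as many as their own. Under other clusterings a cluster took the class most of its cells had before.

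Exact 95% intervals (conditional binomial for ratios, Poisson for levels, Clopper-Pearson for shares) cover counting error only; a count of 0 allows up to 3 counts. Genes named beside the members were the 3 most alike per member and, from each list, up to 4 with intervals farthest from 1; further genes of these lists are not described. The members, gene lists and cell lists were chosen with earlier results of these data known, and the bins by macrophage markers and immediate early RNA and the groups by Ppbp UMIs after the values were seen. Sequences came from RefSeq promoter windows (GRCm38.p6; 6 of the 7 members matched) and GENCODE vM21 transcripts. The code was tested on simulated data. Software was scanpy 1.11.5, igraph 0.11.9 and scikit-learn 1.9.0 for clustering, and scipy 1.17.1, numpy 2.4.6, pandas 2.3.3 and matplotlib 3.10.9 under Python 3.11.15.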

Additional observations from a re-analysis of the deposited data

How the results depend on the processing

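No paired analysis was possible because there was 1 library per group. Values are log2 ratios of PTIR1 over mock. Main values for the summed ligands were 0.99 in macrophage-like, 0.28 in neutrophil-like, 1.15 in fibroblast-like and 0.40 in tumour-like cells, and -0.01 for Pf4 in macrophage-like and -0.66 for Cxcr2 in neutrophil-like cells. Because counting intervals are narrow, most alternatives moved a value out of its interval. In macrophage-like cells the ligands were at 1.25 with chemokines among the variable genes, 1.02 at resolution 2.0, 0.98 with libraries clustered apart, 1.05 with up to 20% mitochondrial UMIs, 1.03 with at least 500 genes, 1.06 with doublets kept, 0.89 with cells weighing the same, 0.91 thinned and 1.02 centred on all genes; Pf4 in the same order of clusterings and filters was at 0.34, 0.06, 0.07, 0.08, 0.03 and 0.09, with 0.01 thinned, 0.03 centred and 0.28 under a marker gate. Added after the data were seen, joining the 2 unnamed clusters gave 1.23 for the ligands and 0.29 for Pf4, equal cluster weights 0.76 and 0.15, and the 4 bins of immediate early RNA 0.16, 0.70, 0.46 and 0.31 for the ligands and -0.08, 0.18, -0.32 and 0.06 for Pf4. In neutrophil-like cells the ligands were at 0.32 with chemokines, 0.34 clustered apart, 0.16 by gate, 0.31 with more mitochondrial UMIs, 0.36 with 500 genes, 0.24 with equal cells, 0.24 thinned, 0.11 with immature cells joined and 0.32 in the bin with fewer macrophage markers; Cxcr2 was at -0.85 with immature cells joined and kept within its interval otherwise. In fibroblast-like cells the ligands were at 1.90 with doublets kept and 2.45 in the bin with fewer macrophage markers. In tumour-like cells they were at 0.49 with chemokines, 0.73 clustered apart, 0.57 with 500 genes, 0.10 with doublets kept, 0.16 with equal cells, 0.49 centred and 1.23 in the bin with fewer macrophage markers, and reversed to -0.65 when thinned, where few UMIs were left (the cause was not tested). The macrophage-like share of ligand UMIs (65.2% mock, 62.3% PTIR1) was 74.9% and 68.2% with chemokines, 64.6% and 59% at resolution 2.0, 71.1% and 63.2% clustered apart, 57.6% and 32.6% by gate, 64.6% and 62.4% with more mitochondrial UMIs, 66.5% and 61.4% with 500 genes, and 59.5% and 54.7% with doublets kept. The gate gave no value for fibroblast-like and tumour-like cells, and clustering apart none for fibroblast-like cells.

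Among single members whose main interval excluded a ratio of 1, the sign reversed in 15 values, out of 240 for all members. In macrophage-like cells these were Cxcl1 (-0.14), Cxcl3 (-0.02) and Cxcl5 (-0.56) in the lowest bin, Ppbp (-0.14) in the third and Cxcr2 when thinned (-0.03) and in the highest bin (-0.45). Ppbp in neutrophil-like cells was at -0.39 by gate and -0.34 in the bin with fewer macrophage markers. In fibroblast-like cells Cxcl3 thinned was at -0.98 and Pf4 in that bin at 0.47. In tumour-like cells Cxcl2 was at 0.33 clustered apart, 0.18 with 500 genes and 0.83 in that bin, and Cxcl3 at 0.39 and 1.41. The causes were not tested. Pf4 in tumour-like cells, whose main interval held 1 (-0.25), also changed sign, to 0.04 with equal cells, 0.61 thinned and 0.23 in that bin. Ratios of Cxcl5, Ppbp and Cxcr2 in tumour-like cells rest on at most 12 UMIs in a library.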
